A study of Homo sapiens with 9 samples.

Results

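The genes described here were 42 genes of mitosis and of the passage from G2 phase into mitosis (G2/M), taken by symbol from a list of genes with these functions. All 42 symbols were among the 60591 rows of the count table, and 41 of them passed the filter on low counts that left 15944 genes for testing. NUSAP1 was the member that did not pass. The messenger RNA came from uCaco-2, the undifferentiated and dividing state of the colon cancer line Caco-2, which was derived from a human adenocarcinoma. Control cells received fresh medium, a further set of cells received 300 μM cobalt(II) chloride (CoCl2), and the third set received 5 μM of an oxyquinoline derivative (OD), in each case for 24 h and with 0.5% DMSO in the medium as stated, although the stated OD stock would by itself bring less DMSO than this at the dose used. Both agents were used to activate the hypoxia-inducible factor (HIF) pathway by acting on prolyl hydroxylases, and the question put to the mitotic genes was whether their mRNA levels changed with each agent and whether the agents differed. Each condition had 3 libraries that the study's methods describe as biological replicates of 1 cell line.

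Cells enter mitosis when cyclins A and B activate the kinase CDK1, which CDC25 phosphatases release from its inhibitory phosphorylation. Condensed chromosomes then attach through their kinetochores to the spindle, the spindle checkpoint holds anaphase back until every chromosome is attached, and the anaphase-promoting complex (APC/C) with its activator CDC20 marks securin and cyclin B for destruction. Most of these genes are transcribed late in the cell cycle under B-MYB and FOXM1 and are silent in resting cells, which is why their mRNA is commonly read as a sign of proliferation. In bulk RNA, fewer cells in G2 or mitosis and less mRNA in each such cell cannot be told apart.

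Total counts per library lay between 15998136 and 24209427. The factors by which TMM, edgeR's trimmed mean of M-values, rescaled the libraries lay at 1.11 to 1.12 for control, 0.770 to 0.795 for CoCl2 and 1.14 to 1.15 for OD libraries. Levels below are given as CPM, the share of a library's counts after correction by these factors, unless another scale is named. With library size alone in place of these factors, the median log2 fold change of all tested genes moved from -0.05 to -0.55 for CoCl2 against control, and members that lay near 0 with CoCl2 moved below it, so rises with CoCl2 are given with their values under that scaling. Falls with CoCl2 became deeper under it, and the sign of CoCl2 against OD was reversed for 10 members. Of 10 markers of colon epithelial lines, 9 were at 1 CPM or more in every library and CDX1 was at 0 in all of them. The same level was reached by 3 of 8 enterocyte, 1 of 5 fibroblast, 1 of 3 endothelial and 0 of 4 leukocyte markers.

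Taken as counts with no scaling but the library total, the 42 genes held 0.709% to 0.719% of all counts in the control libraries, 0.442% to 0.447% in the CoCl2 libraries and 0.473% to 0.484% in the OD libraries. No treated library overlapped the control libraries. After TMM scaling the summed level was 6419 ± 28.3 CPM (SD, n = 3) in control cells, 5682 ± 119 CPM with CoCl2 and 4171 ± 53.4 CPM with OD. The OD sum was therefore 65.0% of control after TMM scaling and 66.8% with library size alone, whereas the CoCl2 sum was 88.5% of control in the former and 62.4% in the latter.

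Conditions were compared by edgeR's quasi-likelihood test, fitted on the 9 libraries together, and p-values were adjusted over the 15944 tested genes after Benjamini and Hochberg. A gene is called below where its adjusted p was under 0.05 and its log2 fold change was beyond 1 in size. The words rose and fell are used where the adjusted p alone was under 0.05. An exact permutation test of single genes, two-sided and with 3 libraries against 3, cannot give a p below 0.1, and it gave this smallest p for 38 of the 41 tested members with CoCl2, 39 with OD and 40 for CoCl2 against OD. Both comparisons with control use the same 3 control libraries, so their values are set side by side and the agents are compared through the test of CoCl2 against OD.

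With OD the mitotic genes fell nearly as a body, and none was called higher. Of the 41 tested members, 11 were called lower, against 4.16% of all tested genes, and 0 were called higher, against 9.09%. At an unadjusted p under 0.05, 2 members were higher, and DESeq2 called 11 lower and 0 higher. By the adjusted p alone, 37 members fell, against 33.3% of all tested genes, and 2 rose, against 32.3%. The median log2 fold change of the members was -0.60, and that of all tested genes was -0.01. The members called lower were PLK1, CENPA, CCNB1, PTTG1, CDC20, KIF20A, CENPE, AURKA, TOP2A, UBE2C and KIF23, and the risers were MYBL2 and CDC25C. SPC24 and ESPL1 did not pass the adjusted p. The 3 OD libraries lay below the 3 control libraries for 37 members, against 34.3% of all tested genes, and above them for 2, against 33.7%.

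With CoCl2 the same list split. Of the 41 members, 9 were called lower, against 23.4% of all tested genes, and 2 were called higher, against 19.9%. The 9 were CDC25B, SPC24, TOP2A, CENPA, CCNA2, ESPL1, FOXM1, KIF20A and SPC25, and the 2 were INCENP and TTK. By the adjusted p alone 24 members fell, against 42.8% of all tested genes, and 14 rose, against 40.4%, so that by the adjusted p alone the share that fell (58.5%) was above that of all genes, while the calls were 22.0% and 4.88% of the members, near that of all genes for falls and below it for rises. The median of the members, -0.39, lay below the median of all genes, -0.05. With library size alone the counts of called members became 17 lower and 0 higher, against 36.6% and 11.5% of all tested genes. Under this scaling the members' median became -0.89, and only 4 of the 41 log2 fold changes were above 0 (INCENP 0.73, TTK 0.56, ANLN 0.32 and BUB3 0.08). The distance between the members' median and that of all genes was -0.34 under both scalings. A change of factors moves all genes of a comparison nearly alike, so this distance could not differ much. After TMM scaling the CoCl2 libraries lay below the control libraries for 24 members, against 42.9% of all tested genes, and above them for 14, against 40.5%.

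**Figure D1:**
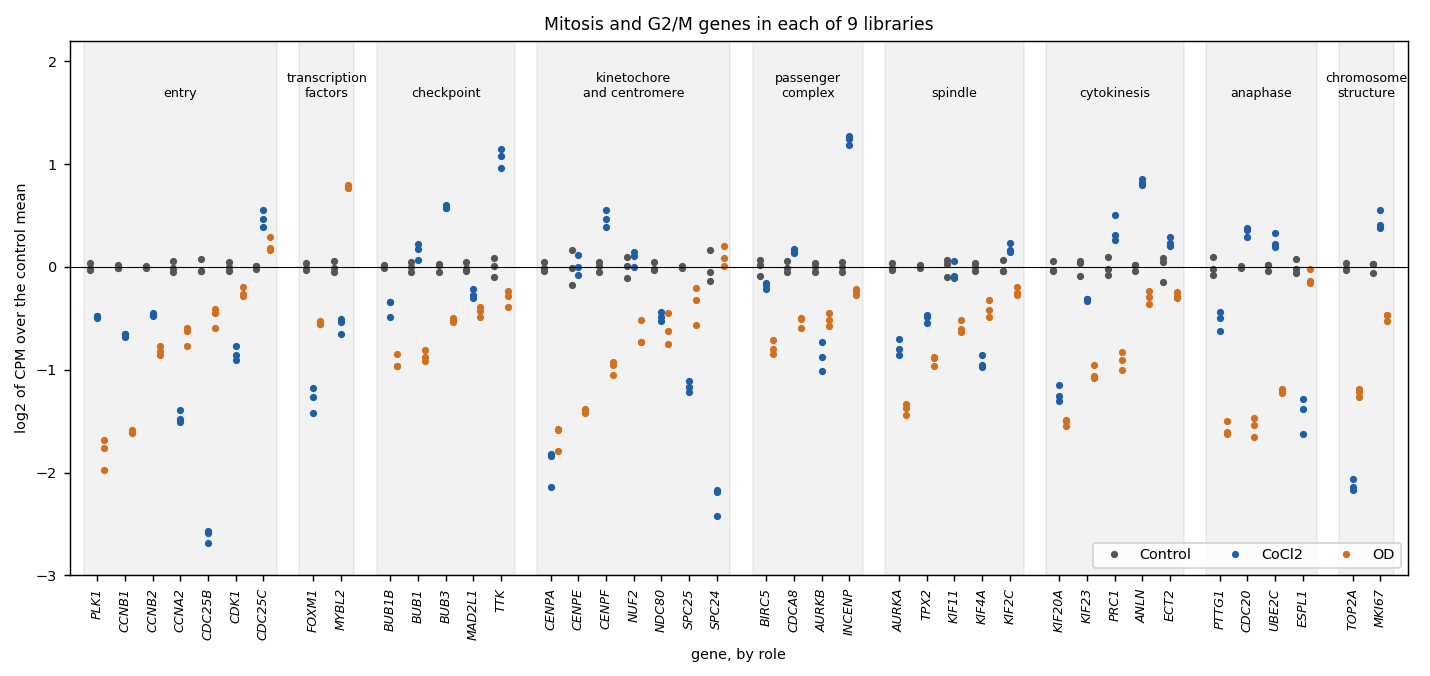
Level of the 41 tested genes in each of the 9 libraries, as the log2 ratio of CPM to the control mean (y axis), with genes grouped by role on the x axis and 1 point per library. OD points lay below the control points for all but SPC24, ESPL1, MYBL2 and CDC25C, while CoCl2 points spread from -2.61 for CDC25B to 1.24 for INCENP in the fitted log2 fold changes (0.73 for INCENP with library size alone).

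Promoter sequence was examined for elements that these genes share and that the choice of genes did not use. RefSeq promoters on GRCh38.p14, from 250 bases before to 50 bases after the start site, were matched for 35 of the 42 genes. Only the first listed start of each gene was searched, so an element at another start was not seen. CDC25B and CDC25C, which gave no match, had 4 listed starts, and CDK1, AURKB, ECT2 and PTTG1 had 2. MYBL2, CENPE and KIF2C also gave no match, and each had only 1 listed start. The CHR element, TTTGAA, and the CCAAT box, the letters bound by NF-Y, are textbook elements of late cell cycle promoters and were searched on both strands, so that on the printed strand a match can also read TTCAAA (for the CHR element) and ATTGG (for the box). TTTGAA was found in 23 of the 35 promoters (65.7%) and in 15.4% of 27305 promoters of the whole table. CCAAT was found in 26 (74.3%), against 35.7%, and both were found in 19 (54.3%), against 6.08%. A match is a description of letters and not of a bound site. Only TTTGAA and CCAAT themselves were searched, so a promoter without a match may still hold a variant of the element. FOXM1, BUB3, TTK, BIRC5, AURKA, TPX2 and UBE2C had no entry.

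Below are the 120 bases before the RefSeq start of 7 genes, 5′ to 3′ on the gene's own strand, with the letters of either element in capitals in either direction. PLK1, CENPA, CCNB1, CDC20 and KIF20A are shown because they fell most with OD among genes with an entry and 1 listed start, SPC24 because it fell most with CoCl2 among them, and INCENP because it rose most with CoCl2 (and still did with library size alone). The windows are chr16:23678769-23678888 (plus strand) for PLK1, chr2:26785936-26786055 (plus) for CENPA, chr5:69167030-69167149 (plus) for CCNB1, chr1:43358861-43358980 (plus) for CDC20, chr5:138178992-138179111 (plus) for KIF20A, chr19:11155783-11155902 (minus) for SPC24 and chr11:62123891-62124010 (plus) for INCENP. That of CDC20 ends at the base before the GENCODE gene, and the other windows overlap the outer bounds of their GENCODE genes in whole or in part, since the starts differ between the annotations.
PLK1: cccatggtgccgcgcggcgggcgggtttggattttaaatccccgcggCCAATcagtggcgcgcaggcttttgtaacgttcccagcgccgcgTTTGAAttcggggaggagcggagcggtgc
CENPA: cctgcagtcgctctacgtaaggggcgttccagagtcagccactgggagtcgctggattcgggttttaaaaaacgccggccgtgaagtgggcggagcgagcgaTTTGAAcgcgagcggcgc
CCNB1: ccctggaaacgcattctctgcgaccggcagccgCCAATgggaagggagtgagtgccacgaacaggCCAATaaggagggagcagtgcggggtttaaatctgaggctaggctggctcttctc
CDC20: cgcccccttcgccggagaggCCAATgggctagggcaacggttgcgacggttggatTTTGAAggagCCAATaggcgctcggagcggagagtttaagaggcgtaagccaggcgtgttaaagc
KIF20A: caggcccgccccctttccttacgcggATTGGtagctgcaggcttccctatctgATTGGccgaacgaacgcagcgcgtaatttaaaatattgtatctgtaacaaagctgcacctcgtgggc
SPC24: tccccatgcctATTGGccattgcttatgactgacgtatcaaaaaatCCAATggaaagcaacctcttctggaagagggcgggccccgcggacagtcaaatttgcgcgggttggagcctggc
INCENP: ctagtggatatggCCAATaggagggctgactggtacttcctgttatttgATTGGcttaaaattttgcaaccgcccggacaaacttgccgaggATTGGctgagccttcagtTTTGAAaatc

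TTTGAA stood in the windows of PLK1, CENPA, CDC20 and INCENP, and CCAAT stood in all of the 7 but that of CENPA. Over the members, 16 genes had a TTTGAA match whose leading base lay in the 70 bases before the start, and 22 had a CCAAT match in the 120 bases before it. The median log2 fold change with OD was -0.59 for the 22 tested genes that held TTTGAA at the start searched and -0.59 for the 12 that did not. With CoCl2 it was -0.29 for the 22 that held it and -0.61 for the other 12. For CCAAT the medians with OD were -0.66 for 25 genes that held it and -0.48 for 9 that did not, and with CoCl2 they were -0.48 and 0.01. The ranges of the groups with and without each element overlapped in each of these comparisons.

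**Figure D2:**
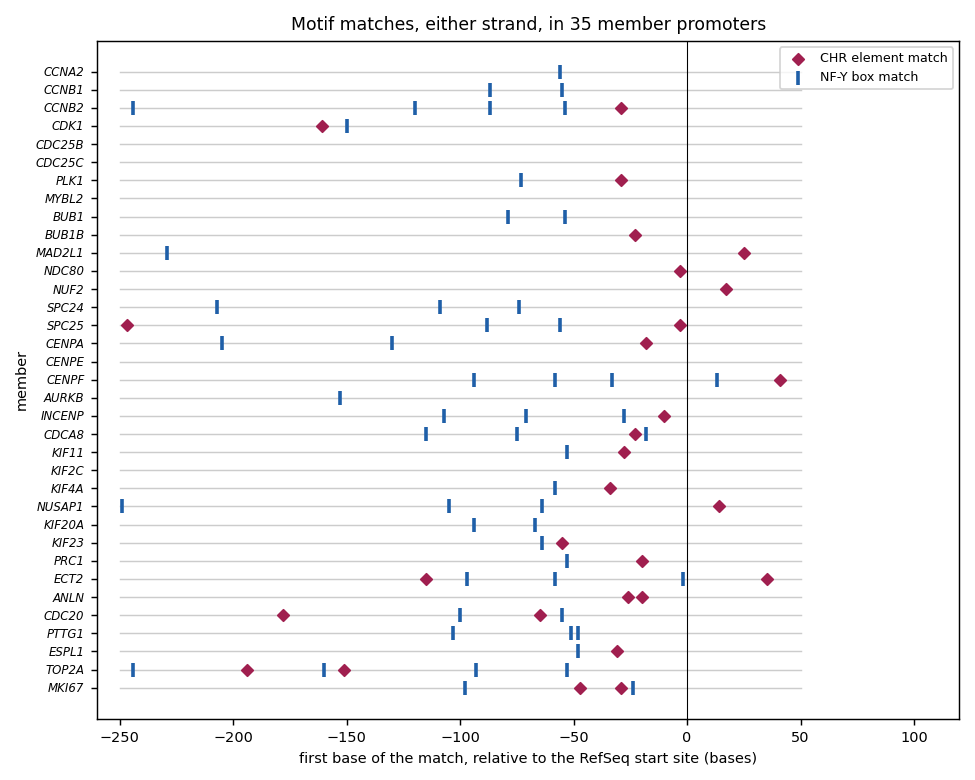
Position of each match on either strand (x axis, bases from the RefSeq start to the leading base of the match, with the start at 0) in the 35 promoters (y axis, 1 gene per line), with diamonds for the CHR element and bars for the box bound by NF-Y. Matches of the CHR element gathered just before the start, with 16 genes holding one in the last 70 bases, and most box matches (43 of 54) lay in the 120 bases before it.

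Among the genes of mitotic entry (CCNA2, CCNB1, CCNB2, CDK1, CDC25B, CDC25C and PLK1), 6 of 7 fell with each agent and CDC25C rose, a rise that with CoCl2 was lost with library size alone, but the genes that fell most were not the same. CDC25B, a phosphatase that activates CDK1 at the start of mitosis (chr20:3786772-3806121, plus strand, GRCh38), was at 61.1, 56.1 and 56.3 CPM in control cells, 9.02, 9.75 and 9.60 CPM with CoCl2, and 43.7, 42.4 and 38.3 CPM with OD. The CoCl2 libraries were far below the rest, and the OD libraries lay between them and control. CDC25B was thus 6.12-fold lower with CoCl2 (log2 fold change -2.61 ± 0.076 SE, adjusted p = 2.84e-40), the strongest fall of any member, and 1.39-fold lower with OD. CCNA2, cyclin A2, was called lower with CoCl2 (log2 fold change -1.46 ± 0.055) and fell by 0.66 ± 0.050 on the log2 scale with OD.

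PLK1 and CCNB1 had the opposite order. PLK1, the polo-like kinase that acts from mitotic entry to cytokinesis (chr16:23677656-23690367, plus strand), was at 123, 122 and 127 CPM in control cells, 88.1, 89.2 and 89.0 CPM with CoCl2, and 36.6, 38.5 and 31.6 CPM with OD. The 3 conditions did not overlap, and OD was the lowest. Its log2 fold change was -1.80 ± 0.054 with OD (adjusted p = 2.10e-38) and -0.48 ± 0.050 with CoCl2, a 3.48-fold and a 1.40-fold lower level. CCNB1, cyclin B1, went from 359 to 365 CPM in the control libraries to 225 to 230 CPM with CoCl2 and 118 to 121 CPM with OD, with log2 fold changes of -0.66 ± 0.040 and -1.60 ± 0.041. CCNB2, cyclin B2, fell less with either agent (-0.46 with CoCl2 and -0.81 with OD). With library size alone its values were -0.97 with CoCl2 and -0.77 with OD, in the reverse order.

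CDK1, the mitotic kinase itself, kept most of its level with OD. It was at 282, 300 and 290 CPM in control cells, 161, 171 and 156 CPM with CoCl2, and 239, 243 and 254 CPM with OD. The fall was by 0.84 ± 0.043 on the log2 scale with CoCl2 and by 0.25 ± 0.041 with OD. CDC25C, the phosphatase that sustains CDK1 activity through mitosis, was at 27.6 to 28.1 CPM in control cells, 36.6 to 41.0 CPM with CoCl2 and 31.3 to 34.2 CPM with OD. It went against most of its group, with log2 fold changes of 0.21 ± 0.064 with OD and 0.47 ± 0.064 with CoCl2, the latter being -0.04 with library size alone.

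The genes of the transcription factors that drive this programme moved apart with OD. MYBL2, which encodes B-MYB (chr20:43667019-43716495, plus strand), was at 418, 408 and 438 CPM in control cells, 290, 268 and 297 CPM with CoCl2, and 734, 720 and 724 CPM with OD. Every OD library was above every control library and every CoCl2 library was below. The log2 fold change was 0.79 ± 0.040 with OD (adjusted p = 2.07e-26) and -0.56 ± 0.041 with CoCl2. MYBL2 took 6.56% of the counts of the 42 genes in control libraries, against 5.02% and 17.4% in CoCl2 and OD libraries. Per kilobase of exon it had rank 2 of the 42 genes in control cells and rank 1 with OD, at 261 CPM per kb.

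FOXM1, the forkhead factor of G2/M genes (chr12:2857680-2877174, minus strand), was at 134, 129 and 130 CPM in control cells, 54.6, 48.9 and 57.7 CPM with CoCl2, and 89.3, 89.1 and 91.1 CPM with OD. It was called lower with CoCl2 (log2 fold change -1.28 ± 0.052) and fell with OD (-0.54 ± 0.048). In GENCODE 44, 15.9% of its exonic bases overlap a gene on the opposite strand, ITFG2.

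The spindle checkpoint genes BUB1, BUB1B, BUB3, MAD2L1 and TTK all fell with OD, by 0.30 (TTK) to 0.93 (BUB1B) on the log2 scale, and 0 of the 5 were called. With CoCl2, TTK, BUB3 and BUB1 rose, with log2 fold changes that with library size alone became 0.56, 0.08 and -0.35, and BUB1B and MAD2L1 fell. TTK, the MPS1 kinase that starts checkpoint signalling (chr6:80003887-80042527, plus strand), was at 54.6, 58.6 and 61.8 CPM in control cells, 124, 129 and 113 CPM with CoCl2, and 44.6, 49.4 and 48.1 CPM with OD. Its CoCl2 libraries stood apart above the other 6. The log2 fold change with CoCl2 was 1.06 ± 0.054 (adjusted p = 1.76e-27), a call that was lost with upper-quartile factors (0.96), with library size alone and with no filter on counts (1.00, just under 1).

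BUB3, which carries BUB1 and BUBR1 to the kinetochore, was at 145 to 153 CPM in control cells, 222 to 227 CPM with CoCl2 and 104 to 106 CPM with OD. Its log2 fold changes were 0.58 ± 0.042 with CoCl2 and -0.52 ± 0.043 with OD. BUB1, a checkpoint kinase, differed least from control with CoCl2 (0.15 ± 0.046) and fell with OD (-0.87 ± 0.048). BUB1B, which encodes BUBR1, was lower with CoCl2 (-0.39 ± 0.052) and with OD (-0.93 ± 0.052), and PAK6 on the same strand covers 10.2% of its exonic bases. MAD2L1, which encodes the checkpoint inhibitor MAD2, was at 60.4 to 64.1 CPM in control cells and fell with both (-0.27 ± 0.055 and -0.44 ± 0.054).

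The kinetochore and centromere genes held deep falls beside differences that did not pass the test. CENPA, the histone H3 variant that marks the centromere (chr2:26764289-26801067, plus strand), was at 26.9, 28.5 and 27.5 CPM in control cells, 6.28, 7.74 and 7.81 CPM with CoCl2, and 9.26, 9.23 and 7.99 CPM with OD. It was called lower with each agent, at log2 fold changes of -1.92 ± 0.091 and -1.64 ± 0.083, and shares 7.08% of its exonic bases with SLC35F6 on the same strand. CENPE, a kinesin that moves chromosomes to the spindle equator, was at 65.7, 83.4 and 73.9 CPM in control cells, 74.5, 80.3 and 70.3 CPM with CoCl2, and 28.5, 27.8 and 28.4 CPM with OD. The control and CoCl2 libraries overlapped (log2 fold change 0.01 ± 0.060, adjusted p = 0.919, with a sign that changed in several settings), and the OD libraries lay below all others (-1.40 ± 0.065). CENPF, a large kinetochore protein that accumulates in G2, was at 322 to 344 CPM in control cells and at 161 to 176 CPM with OD, close to a call at -0.98 ± 0.043. With CoCl2 it was at 439 to 489 CPM, a log2 fold change of 0.47 ± 0.042 that became -0.04 with library size alone.

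The 4 subunits of the NDC80 complex, the arm that grips microtubules, gave 4 different changes with CoCl2. SPC24 (chr19:11131520-11155807, minus strand) was at 18.7, 16.1 and 15.2 CPM in control cells, 3.11, 3.71 and 3.67 CPM with CoCl2, and 19.3, 16.8 and 17.7 CPM with OD. Only the CoCl2 libraries stood apart, 4.77-fold lower (log2 fold change -2.25 ± 0.12, adjusted p = 1.33e-26), and the OD difference of 0.10 ± 0.082 did not pass (adjusted p = 0.268). SPC25, its partner, was at 24.2 to 24.6 CPM in control cells, 10.5 to 11.3 CPM with CoCl2 and 16.6 to 21.2 CPM with OD (log2 fold changes -1.17 ± 0.087 and -0.36 ± 0.075). At the microtubule end of the complex, NDC80 fell with both (-0.48 ± 0.060 and -0.60 ± 0.058). NUF2 overlapped between control (33.2 to 38.3 CPM) and CoCl2 (36.0 to 39.6 CPM), with a difference of 0.08 ± 0.066 and an adjusted p of 0.247, and fell with OD (-0.66 ± 0.068). As ratios between genes of the same libraries, these differences among the subunits do not depend on the scaling.

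The chromosomal passenger complex showed the same spread. INCENP, its scaffold (chr11:62123998-62153169, plus strand), was at 86.3, 80.4 and 83.5 CPM in control cells, 198, 190 and 201 CPM with CoCl2, and 71.9, 70.8 and 69.1 CPM with OD. The CoCl2 libraries lay above all others, and INCENP was the member that rose most, 2.35-fold (log2 fold change 1.24 ± 0.046, adjusted p = 1.42e-34, and 0.73 with library size alone, which ended the call). AURKB, the kinase that INCENP carries and activates, was at 40.4, 39.0 and 41.5 CPM in control cells, 22.0, 20.0 and 24.3 CPM with CoCl2, and 29.6, 28.1 and 27.0 CPM with OD. It fell with both agents (-0.85 ± 0.069 and -0.51 ± 0.063), so that scaffold and kinase had log2 fold changes of opposite sign with CoCl2 under TMM scaling and under library size alone. The targeting subunits moved little with CoCl2 after TMM scaling. CDCA8 (borealin) had a log2 fold change of 0.16 ± 0.052, or -0.35 with library size alone. BIRC5 (survivin) had one of -0.18 ± 0.050, or -0.69 with library size alone. Both fell with OD, by 0.53 ± 0.053 and 0.79 ± 0.051 on the log2 scale, and INCENP by 0.24 ± 0.048.

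All 5 tested spindle genes fell with OD. AURKA, the centrosomal kinase (chr20:56369389-56392337, minus strand), was at 282, 272 and 268 CPM in control cells, 168, 152 and 158 CPM with CoCl2, and 106, 101 and 109 CPM with OD. The 3 conditions were fully apart, at log2 fold changes of -0.78 ± 0.043 with CoCl2 and -1.38 ± 0.044 with OD, the sole call in this group after TMM scaling. With library size alone AURKA (-1.29), TPX2 (-1.004) and KIF4A (-1.43) were also called lower with CoCl2. TPX2, which activates AURKA on the spindle, followed the same order after TMM scaling (-0.50 ± 0.040 and -0.91 ± 0.040). With library size alone the OD values were -1.34 for AURKA and -0.87 for TPX2. The agents were then near each other for AURKA, and the order was reversed for TPX2. The kinesins differed. KIF4A, a chromosome-bound kinesin, fell most with CoCl2 (-0.92 ± 0.053) and by 0.41 ± 0.050 with OD, while KIF11, the motor that separates the spindle poles, overlapped between control (103 to 116 CPM) and CoCl2 (102 to 114 CPM, adjusted p = 0.366) and fell with OD (-0.59 ± 0.051). With library size alone the CoCl2 value of KIF11 was -0.55. KIF2C, a kinesin that shortens microtubules, was the least changed with OD (-0.24 ± 0.048) and had a log2 fold change of 0.19 ± 0.048 with CoCl2 that became -0.32 with library size alone. NUSAP1, a microtubule-bundling protein, was counted at 2 to 14 reads per library, and another gene on the same strand, ENSG00000285920, covers 86.8% of its exons, so its level could not be read here.

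Among the genes of cytokinesis (KIF20A, KIF23, PRC1, ECT2 and ANLN) all 5 fell with OD. KIF20A, a kinesin of the central spindle (chr5:138178719-138187723, plus strand), was at 165, 156 and 155 CPM in control cells, 71.4, 66.3 and 64.2 CPM with CoCl2, and 56.0, 54.3 and 56.3 CPM with OD. It was called lower with each agent (-1.24 ± 0.049 and -1.51 ± 0.049, or -1.74 and -1.47 with library size alone). KIF23, its neighbour on the central spindle, was called with OD alone (-1.03 ± 0.049, or -0.99 with library size alone) and fell by 0.32 ± 0.048 with CoCl2. ANLN, the anillin of the contractile ring, was at 242, 253 and 252 CPM in control cells, 451, 439 and 433 CPM with CoCl2, and 203, 193 and 211 CPM with OD. Its CoCl2 libraries were above all others, at a log2 fold change of 0.83 ± 0.041 (0.32 with library size alone), and its OD change was -0.30 ± 0.041. ECT2, the exchange factor that activates RhoA for the cleavage furrow, fell least with OD (-0.28 ± 0.047), and its log2 fold change of 0.24 ± 0.047 with CoCl2 became -0.27 with library size alone. PRC1, which bundles antiparallel microtubules, was low, at 2.13 to 6.03 CPM, with ENSG00000284946 covering 57.6% of its exons on the same strand, and its log2 fold changes of 0.36 ± 0.14 with CoCl2 (-0.15 with library size alone) and -0.92 ± 0.16 with OD are uncertain for that reason.

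The genes that open anaphase were the group lowest with OD, where their summed level was 43.8% of control. CDC20, the APC/C activator (chr1:43358981-43363203, plus strand), was at 156, 154 and 156 CPM in control cells, 199, 191 and 202 CPM with CoCl2, and 56.2, 53.4 and 49.5 CPM with OD. The 3 conditions were apart, with OD lowest and CoCl2 highest. The log2 fold change was -1.55 ± 0.048 with OD (2.92-fold lower, adjusted p = 8.06e-38) and 0.34 ± 0.044 with CoCl2, which became -0.16 with library size alone. UBE2C, the APC/C's ubiquitin-conjugating enzyme, had the highest level per kilobase of the 42 genes in control cells, 208 CPM per kb, and took the same course (-1.20 ± 0.043 with OD, and 0.25 ± 0.041 with CoCl2 that became -0.26 with library size alone).

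PTTG1, the securin that the APC/C destroys, was at 106, 93.2 and 97.1 CPM in control cells, 69.9, 72.6 and 64.2 CPM with CoCl2, and 34.8, 32.0 and 32.3 CPM with OD. It fell with both, at -0.52 ± 0.053 and -1.58 ± 0.056. ESPL1, the separase that securin holds inactive (chr12:53268299-53293638, plus strand), had the reverse order. It was at 55.8, 52.4 and 51.0 CPM in control cells, 20.3, 17.2 and 21.8 CPM with CoCl2, and 52.3, 48.2 and 47.6 CPM with OD. The OD and control libraries overlapped (-0.10 ± 0.058, adjusted p = 0.112), and it was called lower with CoCl2 (-1.41 ± 0.069). ESPL1 was the member of this group that OD did not lower beyond the test, while the other 3 were all called.

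The chromosome genes TOP2A and MKI67 are both used as proliferation markers, and with CoCl2 they went apart. TOP2A, topoisomerase IIα (chr17:40388525-40417896, minus strand), was at 548, 566 and 541 CPM in control cells, 123, 132 and 125 CPM with CoCl2, and 230, 237 and 243 CPM with OD. It was called lower with each agent, 4.36-fold with CoCl2 (log2 fold change -2.13 ± 0.043, adjusted p = 5.63e-49) and 2.33-fold with OD (-1.22 ± 0.040). MKI67, the Ki-67 protein of the chromosome surface (chr10:128096659-128126423, minus strand), was at 603, 605 and 571 CPM in control cells, 872, 772 and 787 CPM with CoCl2, and 430, 411 and 429 CPM with OD. It fell with OD (-0.49 ± 0.041), and its log2 fold change of 0.45 ± 0.041 with CoCl2 became -0.06 with library size alone. In shares of the counts of the 42 genes, which no scaling touches, TOP2A went from 8.60% ± 0.17 (SD, n = 3) to 2.23% ± 0.12 with CoCl2 and MKI67 from 9.23% ± 0.27 to 14.2% ± 0.65.

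**Figure D3:**
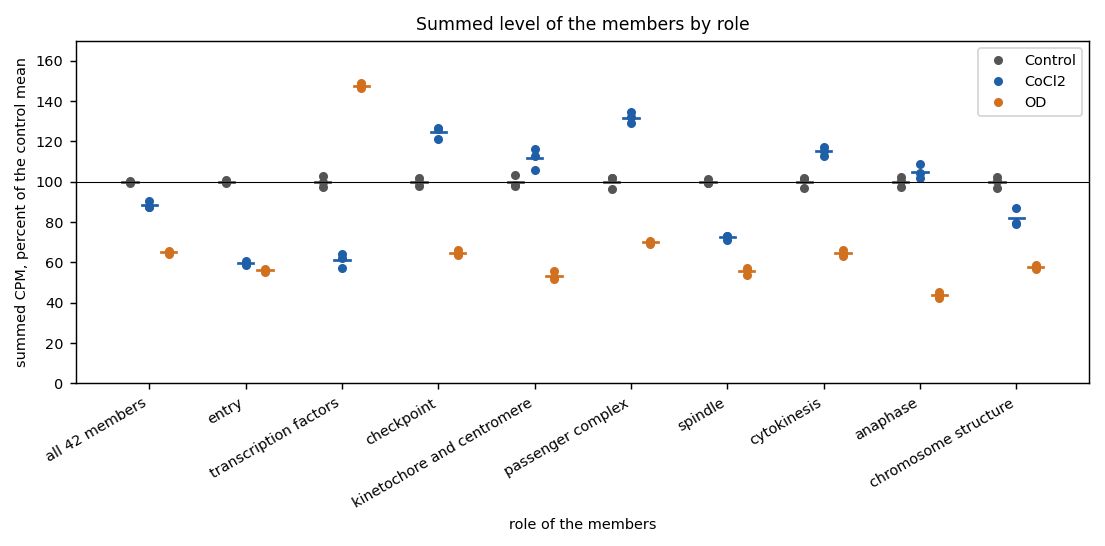
Summed CPM of the members of each role after TMM scaling, as a percentage of the control mean (y axis, from 0), with 1 point per library and a line at the mean of 3. With OD all role sums but that of the transcription factors (148%) were 43.8% to 70.0% of control, and with CoCl2 they ran from 59.5% for entry to 132% for the passenger complex, whereas with library size alone every CoCl2 sum lay below control (41.9% to 92.9%).

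By role, the CoCl2 sums lay above control for the checkpoint (125%), kinetochore (112%), passenger (132%), cytokinesis (115%) and anaphase (105%) genes after TMM scaling, and below it for each of these with library size alone (87.9%, 78.7%, 92.9%, 81.2% and 74.0%). Entry, transcription factor, spindle and chromosome genes were below control in both (59.5%, 61.4%, 72.4% and 81.8% after TMM scaling). The order of the 9 roles was the same under both scalings, as it had to be where a change of factors moves all sums of a condition nearly alike. A sum is led by its most abundant genes, as MYBL2 leads the transcription factors with OD.

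**Figure D4:**
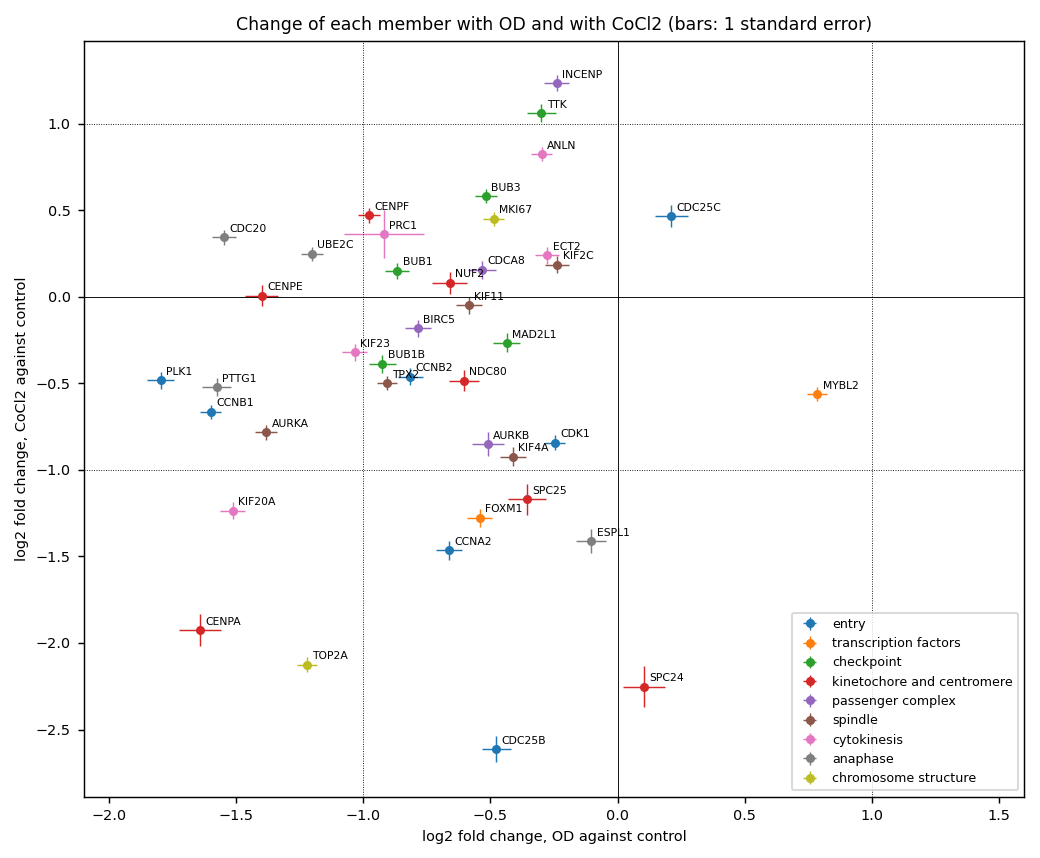
Log2 fold change of each tested gene with OD (x axis) and with CoCl2 (y axis) against the same 3 control libraries, with bars of 1 standard error, colours for roles and dotted lines at the call threshold of 1. INCENP, TTK and ANLN at the top, CDC25B, SPC24 and TOP2A at the bottom, and MYBL2 at the right lay farthest from the rest, and with library size alone the CoCl2 values were lower throughout (37 of 41 below 0).

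The agents were compared directly with each other, at their different doses. Of the 41 members, 4 were called lower with CoCl2 than with OD, against 23.8% of all tested genes, and 12 were called higher, against 17.5%. By the adjusted p alone 12 were lower, against 43.2%, and 28 higher, against 40.2%, with NDC80 not passing (0.12 ± 0.062, adjusted p = 0.0645). The CoCl2 and OD libraries did not overlap for the same counts of members, 12 lower and 28 higher, against 43.5% and 40.3% of all tested genes. The median of the members was 0.54, and that of all genes was -0.05. With library size alone the calls were 10 lower and 1 higher, against 37.8% and 8.47% of all tested genes. The members' median was then -0.01, beside -0.60 for all genes. The distance between members and all genes was 0.59 in both, which the common shift of all genes leaves nearly fixed.

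The genes higher with CoCl2 than with OD were led by CDC20, 3.71-fold (log2 fold change 1.89 ± 0.048), the call that held with library size alone (1.35). INCENP (1.48 ± 0.046), CENPF (1.45 ± 0.043), UBE2C (1.45 ± 0.043), CENPE (1.41 ± 0.066), TTK (1.36 ± 0.054), PLK1 (1.32 ± 0.056) and PRC1 (1.28 ± 0.15) followed, and with library size alone each of these stayed above 0, between 0.73 and 0.93. ANLN, BUB3, PTTG1 and BUB1 completed the 12 at 1.02 to 1.12, and these 4 calls were also lost with upper-quartile factors (0.99, 0.97, 0.92 and 0.89). The call of BUB1 was lost as well without CoCl2 replicate 1 and without OD replicate 2 (both 0.99). The 4 called lower with CoCl2 than with OD were SPC24 (-2.36 ± 0.12, 5.12-fold), CDC25B (-2.14 ± 0.078), MYBL2 (-1.35 ± 0.041) and ESPL1 (-1.31 ± 0.068). CENPA, which was called with each agent, differed by -0.28 ± 0.11 between them.

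Beyond the 42, 105 further genes of mitosis in 5 lists by role were read in the same way. With OD 9 of the 105 (8.57%) were called lower, beside 4.16% of all tested genes, and 0 higher, and 73 fell and 9 rose by the adjusted p alone (74 lower and 10 higher at an unadjusted p under 0.05), with a median of -0.32. Of all tested genes, 9.09% were called higher with OD, and 33.3% fell and 32.3% rose by the adjusted p alone. With CoCl2 11 were called lower and 11 higher, 10.5% each way and below the 23.4% and 19.9% of all tested genes, with a median of -0.31. With library size alone 40 of the 105 were called lower and 0 higher, beside 36.6% and 11.5% of all tested genes. Among 22 further spindle and cytokinesis genes, 7 were called lower with OD, led by HMMR, a spindle assembly factor (109 ± 12 CPM in control cells and 34.9 CPM with OD, log2 fold change -1.65), and by DEPDC1 (-1.43), which was also called lower with CoCl2 (-2.47). NUMA1, which gathers microtubules at the spindle poles, was called higher with CoCl2 (1.29), a call that ended with library size alone (0.78), and 27.3% of its exonic bases overlap a gene on the opposite strand. Among 16 further entry regulators, CDKN3, a CDK phosphatase, was the 1 gene called with OD (-1.48), while 6 were called lower and 3 higher with CoCl2 (8 and 0 with library size alone), led by CCNF, a cyclin of the SCF ubiquitin ligase (-2.45), and the mitotic kinase PBK (-2.20). The CoCl2 calls after TMM scaling were 37.5% and 18.8% of these 16, beside 23.4% and 19.9% of all tested genes. The OD call was 6.25%, beside 4.16%.

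Of 31 further kinetochore and centromere genes, 0 were called with OD by edgeR's quasi-likelihood test, although 18 fell and 2 rose by the adjusted p alone (19 and 3 at an unadjusted p under 0.05), and with CoCl2 4 were called lower and 4 higher (11 and 0 with library size alone), led by CENPM (-2.46) and CENPK (-2.17) of the inner kinetochore. The CoCl2 calls were 12.9% each way, below the 23.4% and 19.9% of all tested genes (36.6% and 11.5% with library size alone). By the adjusted p alone the OD falls were 58.1% and the rises 6.45%, beside 33.3% and 32.3% of all tested genes. The 17 APC/C genes gave 1 call with each agent, CDC26 higher with CoCl2 (1.40, or 0.89 and no call with library size alone) and ANAPC15 lower with OD (-1.20, with 27.1% of its exonic bases overlapping LRTOMT on the opposite strand), with a median of -0.47 for CoCl2 and of -0.42 for OD. Each call was 5.88% of the list, beside 19.9% of all tested genes called higher with CoCl2 and 4.16% called lower with OD. With library size alone 8 of the 17 were called lower with CoCl2. Of 19 condensin and cohesin genes, WAPL, which releases cohesin from chromosomes (1.37), and CDCA5, the sororin that opposes it (1.19), were called higher with CoCl2, calls that ended with library size alone (0.86 and 0.69), and 0 were called with OD, where 15 fell and 3 rose by the adjusted p alone. The CoCl2 calls were 10.5% of these 19, below the 19.9% of all tested genes, and with library size alone 5 were called lower. The OD falls and rises were 78.9% and 15.8%, beside 33.3% and 32.3% of all tested genes.

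**Figure D5:**
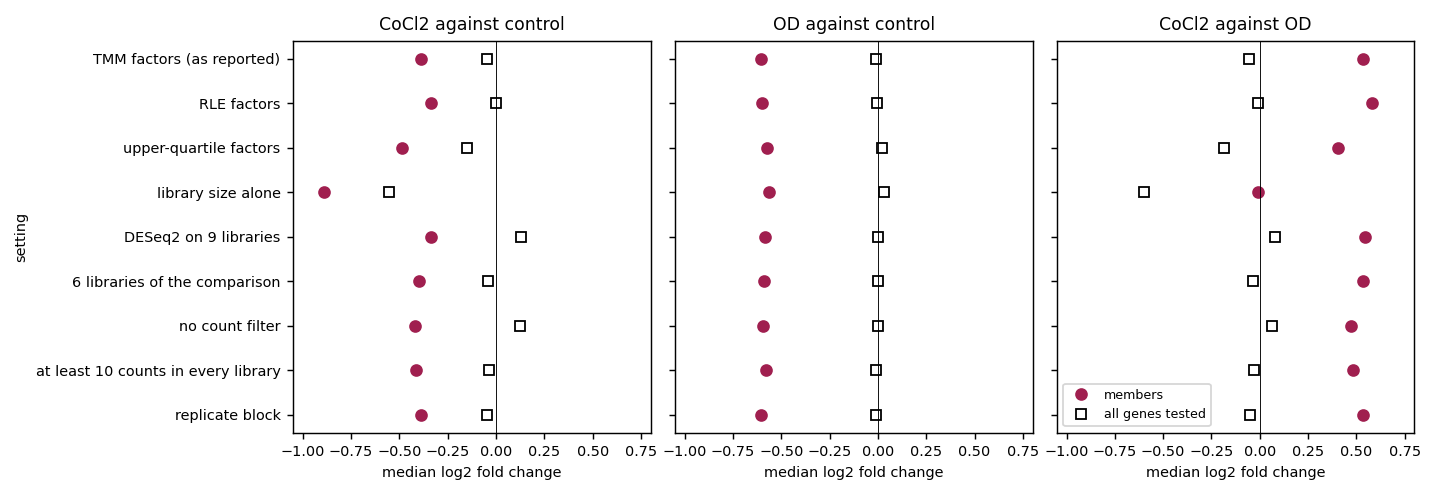
Median log2 fold change (x axis) of the members (filled circles) and of all tested genes (open squares) in each comparison (panels) under 9 settings of the processing (y axis). The OD medians of the members stayed between -0.61 and -0.56, while with library size alone both medians of the CoCl2 comparisons shifted together, from -0.39 to -0.89 for the members against control.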

How the data were processed

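Messenger RNA was measured in 9 libraries of uCaco-2 cells, 3 per condition, and groups were taken from the sample labels. The authors trimmed reads with cutadapt 2.10, checked them with FastQC 0.11.9, aligned them with STAR 2.7.5b on GRCh38 and deposited raw read counts, 1 whole number for each gene symbol and library, with no scaling. The counting tool, its strand setting and its treatment of reads shared by genes are not given in the sources used here, so overlapping genes are uncertain. All 9 columns were mapped, with 0 columns left out.

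These counts were scaled by TMM and filtered by group with edgeR 4.0.16 in R 4.3.3, which left 15944 genes. All 9 libraries entered a single robust quasi-likelihood model with a mean for each condition, and its p-values were adjusted over all tested genes by the method of Benjamini and Hochberg. Standard errors (SE) were derived from the test, as the size of the log2 fold change over the square root of its F statistic. The steps were tested on simulated data in which a small share of genes changed, evenly up and down, and the libraries shared a common composition. That simulation could not test the scaling of the CoCl2 libraries. Depths of 15998136 to 24209427 counts gave standard errors near 0.041 for abundant members such as CCNB1 and 0.16 for PRC1, the lowest one tested. No pair of replicates was alike within sampling noise (chi-square per degree of freedom 1.74 to 3.05), so none was merged as a repeated deposit of 1 library.

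The members and the lists of other genes were chosen with earlier results of these data known. Every member is accounted for. Named with values are, in each role, the members with the largest and smallest change, those against the direction of most, those without a call where most of their role had one, and those with different calls in the 2 treatments, and of other lists the 2 largest changes among called genes. Gene coordinates, exon lengths and overlaps came from GENCODE 44 on GRCh38 (the authors used release 34), and promoters from RefSeq on GRCh38.p14. No set test was run. The alternatives were other scaling factors, DESeq2 1.42.0, the 6 libraries of a comparison alone, other count filters, the replicate number as a block, each library left out, glmTreat and the adjusted p alone.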

Additional observations from a re-analysis of the deposited data

How the results depend on the processing

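Library size alone changed most: for CoCl2 against control the calls became 17 lower and 0 higher and the median -0.89, and for CoCl2 against OD 10 lower, 1 higher and -0.0092. Of all tested genes, 36.6% and 11.5% were then called lower and higher in the former, and 37.8% and 8.47% in the latter. Its reversed values against control were CDC25C -0.038, BUB1 -0.35, NUF2 -0.43, CENPE -0.50, CENPF -0.036, CDCA8 -0.35, KIF2C -0.32, PRC1 -0.15, ECT2 -0.27, CDC20 -0.16, UBE2C -0.26 and MKI67 -0.055, and against OD CCNB2 -0.19, CDC25C -0.29, BUB1B -0.0080, MAD2L1 -0.38, NDC80 -0.43, TPX2 -0.14, KIF11 -0.0092, KIF2C -0.12, KIF20A -0.27 and ECT2 -0.029. These shifts follow from the TMM factors of 0.770 to 0.795 with CoCl2.

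Upper-quartile factors gave 10 members called lower and 1 higher with CoCl2, with KIF4A gaining a call (-1.02), and 5 lower and 8 higher for CoCl2 against OD, with medians of -0.49 and 0.41, NUF2 at -0.019, CENPE at -0.092 and NDC80 against OD at -0.011. RLE factors gave medians of -0.34 and 0.58 and KIF11 at 0.0025, and DESeq2 a median of -0.34. CENPE, whose change with CoCl2 did not pass, was also below 0 on its own 6 libraries (-0.0056), with no count filter (-0.059) and with 10 counts in every library (-0.022), and ran from -0.076 to 0.094 with single libraries left out. The median against OD was 0.47 with no count filter and 0.48 with 10 counts in every library. glmTreat against a log2 fold change of 1 called 1 member higher with CoCl2. The adjusted p alone gave 24 lower and 14 higher with CoCl2, 37 and 2 with OD, and 12 and 28 for CoCl2 against OD. The cause of these changes was not tested.

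With each library left out in turn, the medians ran from -0.40 to -0.32 with CoCl2, from -0.65 to -0.55 with OD and from 0.51 to 0.57 between the agents, and calls numbered 9 lower and 2 to 3 higher, 11 to 12 lower and 0 higher, and 4 lower and 11 to 13 higher. NUSAP1 passed the count filter in several of these fits, without a call with OD and with a sign that differed between them. None of the other 41 members changed direction with OD in any setting run; KIF23 lost its call there with library size alone (-0.99) and CENPF gained one without control replicate 3 (-1.01).

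Same-numbered libraries did not deviate together (r of -0.03 to 0.09 over 9 pairs), and the labels do not state whether the numbers pair the samples. A replicate block left the counts at 9 and 2, 11 and 0, and 4 and 12, with medians of -0.39, -0.61 and 0.54. The fewest counts stood behind NUSAP1 (2 to 14 per library) and PRC1 (45 to 101).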

Other observations

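Genes upstream of the mitotic programme were read in 2 further lists. Of 11 genes of the DREAM and MuvB complexes, which silence late cell cycle genes in resting cells or activate them with B-MYB, LIN37 and LIN54, both MuvB subunits, were called higher with CoCl2, and TFDP1, the E2F partner DP1, was called lower, as they also were with library size alone (2.073, 1.504 and -2.234). After TMM scaling these calls were 18.2% higher and 9.09% lower, beside 19.9% and 23.4% of all tested genes. LIN54 was at 29.5 ± 1.2 CPM (SD, n = 3) in control cells, 119 ± 3.6 CPM with CoCl2 and 52.2 CPM with OD. LIN37 was much less abundant, at 1.30 ± 0.19, 7.83 ± 0.22 and 2.11 CPM, and other genes cover 26.7% of its exonic bases on the same strand and 54.0% on either strand. TFDP1 was at 181 ± 2.1 CPM in control cells, 54.4 ± 3.1 CPM with CoCl2 and 165 CPM with OD. With OD, edgeR's quasi-likelihood test called 0 of the 11, and 7 fell and 3 rose by the adjusted p alone and at an unadjusted p under 0.05. Of all tested genes, 4.16% were called lower and 9.09% higher with OD, and 33.3% fell and 32.3% rose by the adjusted p alone.

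Of 21 genes of the G1/S transition and of replication, 6 (28.6%) were called lower with CoCl2, beside 23.4% of all tested genes, led by TYMS, thymidylate synthase (log2 fold change -2.05), and GINS1, a subunit of the replicative helicase (-1.71), with a median of -0.56. With library size alone 11 were called lower, beside 36.6% of all tested genes, and the median was -1.06. The exonic bases of TYMS overlap ENOSF1 on the opposite strand by 47.9%. With OD 0 were called by edgeR's quasi-likelihood test, 13 fell and 7 rose by the adjusted p alone (the same counts at an unadjusted p under 0.05), and the median was -0.21. By the adjusted p alone the falls were 61.9% and the rises 33.3% of the list, beside 33.3% and 32.3% of all tested genes. TYMS was at 55.8 ± 2.0 CPM in control cells, 13.5 ± 0.82 CPM with CoCl2 and 51.0 CPM with OD. The summed level of the 21 genes was 88.6% of control with CoCl2 and 88.9% with OD after TMM scaling, beside 88.5% and 65.0% for the 42 genes of mitosis and G2/M.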
